A study of Homo sapiens with 100 samples.

Results

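Pomalidomide was added to venetoclax in 5 wild-type single-cell clones of TMD8, a human diffuse large B cell lymphoma line, and its effect on the transcriptome was read after 24 hours. The comparison takes 10 of the 100 libraries of the series. They were chosen by their labels alone: 5 libraries of clones labelled wild-type given pomalidomide with venetoclax, called the combination below, and 5 libraries of the same clones given venetoclax without pomalidomide. Each clone, numbered 1 to 5, gave 1 library per treatment, so the pairs differ in pomalidomide and share the clone and the exposure to venetoclax. Each clone is a line grown from 1 cell, no repeat cultures of a clone were labelled, and the doses are not given in the sources used here. For comparison the report uses the same 5 clones with pomalidomide alone (5 libraries) and with DMSO, the solvent control (5 libraries). It also uses 6 clones carrying the A428D mutation, with pomalidomide and venetoclax (6 libraries) and with venetoclax alone (6 libraries). Interferon sums are also shown for A428D clones with pomalidomide alone (6 libraries) and with DMSO (6 libraries). The gene test was fitted over 88 libraries. These include clones of both genotypes given zelebrudomide or bexobrutideg, each with and without venetoclax. The design text places A428D in BTK, whereas the library titles attach it to SF3B1, so those clones are named only by the mutation.

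Pomalidomide binds cereblon, the substrate receptor of a CUL4 ubiquitin ligase, and directs the ligase to zinc finger proteins that it would otherwise leave alone, chiefly Ikaros (IKZF1) and Aiolos (IKZF3). In B cell lymphomas of the activated type, to which TMD8 belongs, loss of these repressors is known to lower IRF4 and to release interferon-stimulated genes. Venetoclax mimics the BH3 domain and blocks BCL2, the mitochondrial guardian on which many lymphoid cells depend. Only RNA was measured, so degradation of the proteins themselves cannot be seen in these data.

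The libraries came from 3' bulk RNA sequencing and held 5807113 to 6901923 assigned reads with the combination, against 6490252 to 7393694 with venetoclax, lower in 5 of 5 clones. Mitochondrial transcripts made up 8.88% to 10.3% of reads with the combination and 7.73% to 8.95% with venetoclax, higher in 5 of 5 clones. An exact sign-flip test over 5 pairs cannot go below p = 0.0625, which both differences reached. All 10 B lymphoma markers, among them MS4A1, CD79A, PAX5 and BTK, were detected, with summed levels of 2838 to 3096 CPM (counts scaled to the library total, the usual depth-corrected unit) with the combination and 3152 to 3555 CPM with venetoclax. Their sum was lower with the combination in 5 of 5 clones (p = 0.0625 in the same exact test), but not every marker followed. CD79A had 612 to 653 CPM with the combination and 499 to 549 CPM with venetoclax. In the gene test described below 3 of the 10 fell and none rose. Sums of markers of other cell types were lower by orders of magnitude than the lymphoma sums. With the combination they were higher in 5 of 5 clones for T and NK cells, myeloid cells, and fibroblasts and endothelium, each at exact p = 0.0625. For erythroid and epithelial cells they were higher in 4 of 5 (exact p = 0.1875). The 10 T and NK cell markers summed to 0.904 to 3.37 CPM with the combination and 0.154 to 1.16 CPM with venetoclax, with CD3G and GNLY at 0 in all 10 libraries. TRAC had 0.301 to 1.93 CPM with the combination and 0 to 0.724 CPM with venetoclax, and NKG7 0.301 to 1.03 and 0 to 0.290 CPM. CD3E was at 0 with the combination and at 0 to 0.135 CPM with venetoclax. The 10 myeloid markers summed to 1.36 to 2.58 CPM with the combination and 0.137 to 0.770 CPM with venetoclax, with FCGR3A, MPO and S100A8 at 0 throughout. CSF1R had 0.580 to 1.38 CPM with the combination and 0 to 0.434 CPM with venetoclax, and CD33 0.151 to 1.02 and 0 to 0.154 CPM. CD163 was at 0 with the combination and at 0 to 0.154 CPM with venetoclax. The 10 fibroblast and endothelial markers summed to 8.40 to 16 CPM with the combination and 6.36 to 8.98 CPM with venetoclax, with VWF and CDH5 at 0 throughout. The 10 erythroid and epithelial markers summed to 19.8 to 23.7 CPM with the combination and 15 to 22.3 CPM with venetoclax, with HBA2 and ALAS2 at 0 throughout. The part of these library differences in the gene results was not tested. In bulk RNA, fewer cells of a state and less RNA per cell cannot be told apart.

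Of 14962 genes tested, 2572 (17.2%) differed between pomalidomide with venetoclax and venetoclax at a Benjamini-Hochberg adjusted p under 0.05 in edgeR's quasi-likelihood test, the threshold used for every call below. They comprised 1426 genes that rose (9.53% of those tested) and 1146 that fell (7.66%). Changes of at least 2-fold were mostly rises, with 418 genes higher (2.79%) and 136 lower (0.909%). In 966 genes (6.46%) every library with pomalidomide lay above every library without it, and in 715 (4.78%) below. Gene levels below are CPM scaled by edgeR's TMM factors, and fold changes are log2 with their standard error. Values per clone run from clone 1 to clone 5. Without the clone term in the model the count was 1259 genes, 795 higher and 464 lower. The excess of rises was absent with the 40 wild-type libraries fitted (1126 higher, 1159 lower) and without an expression filter (1183 and 1186).

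**Figure D1:**
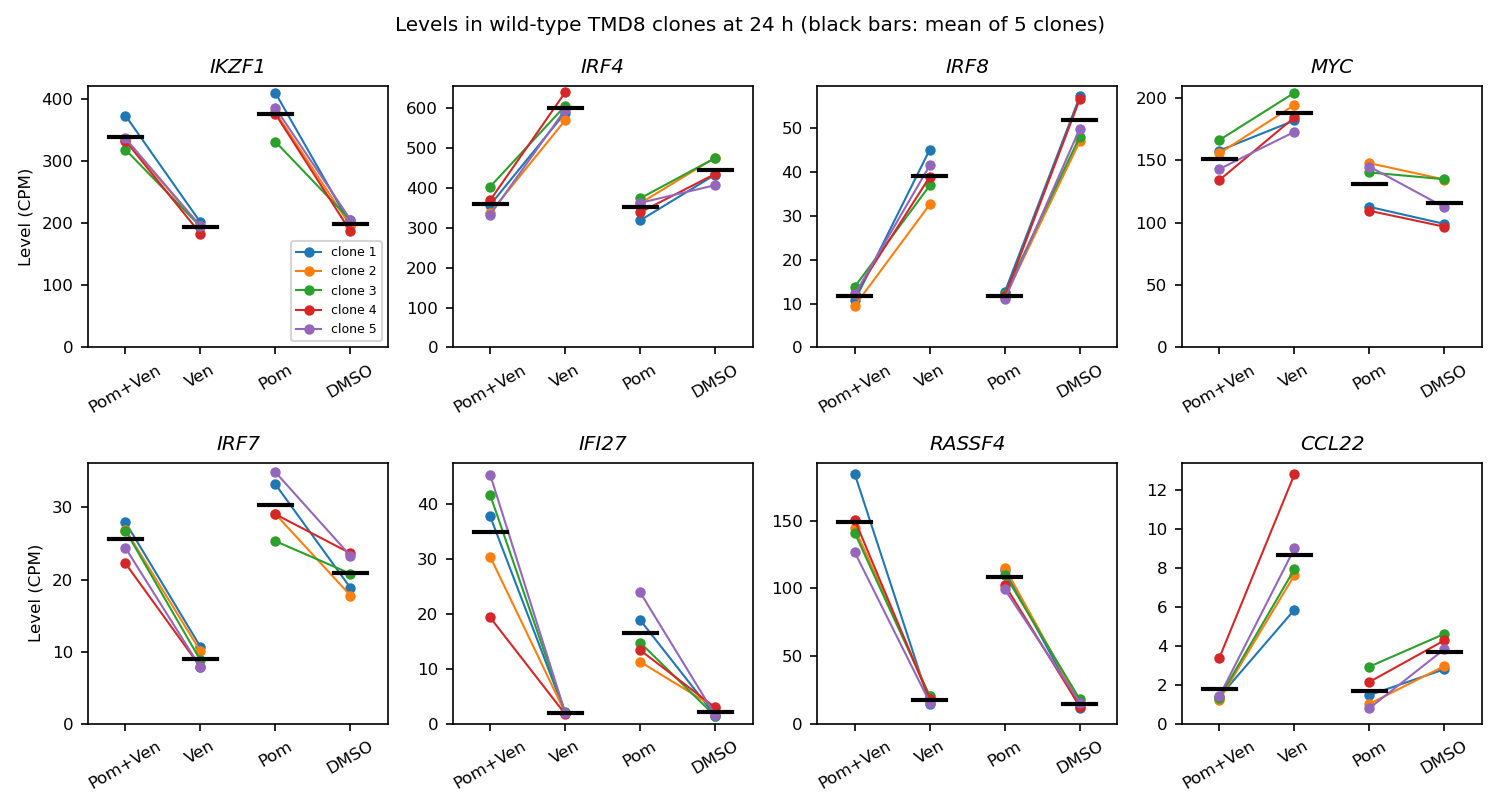
TMM-scaled CPM (linear axes from 0) of IKZF1, IRF4, IRF8, MYC, IRF7, IFI27, RASSF4 and CCL22 in the wild-type clones with the combination, venetoclax, pomalidomide and DMSO. Each point is 1 library, lines join libraries of the same clone and black bars are group means; IFI27 reaches 19.4 to 45.4 CPM in the 5 clones with the combination and 1.81 to 2.14 CPM with venetoclax.

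The transcript of the drug's main target rose. IKZF1 (chromosome 7, 50304068 to 50405101, GRCh38) had 373, 334, 318, 333 and 336 CPM with the combination, against 201, 195, 194, 183 and 195 CPM with venetoclax. No library of one group reached the range of the other, and the change was 0.81 ± 0.06 (adjusted p = 1.1e-20). IKZF3, which encodes Aiolos, had 166, 148, 153, 157 and 148 CPM with the combination and 165, 144, 131, 138 and 132 CPM with venetoclax. Its groups overlapped and the difference of 0.13 ± 0.06 did not pass (adjusted p = 0.16). CRBN, which encodes cereblon, averaged 12.1 CPM with the combination and 11.9 CPM with venetoclax, a difference of 0.01 ± 0.12. Among 21 tested genes of the cereblon ligase and its zinc finger substrates, 5 rose and none fell, beside 9.53% of all genes that rose. Their median was 0.05, against -0.0040 over all genes. ZNF692, a zinc finger protein reported as a pomalidomide substrate, rose by 0.56 ± 0.10, with 24.2 to 31.3 CPM with the combination and 18.1 to 19.5 CPM with venetoclax. The other 3 risers, ZNF827 (0.34), CUL4B (0.23) and ZFP91 (0.23), lost their calls in the fit without the clone term. CUL4B also lost its call when any 1 clone was left out and ZFP91 without clone 2, 3, 4 or 5, which left 3 members called without clone 2, 3, 4 or 5.

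Of the pathway and function lists (markers of other cell types apart), the largest median change was that of the interferon-stimulated genes, the antiviral programme normally switched on downstream of interferon receptors. Of 39 tested members 36 rose and none fell, with a median change of 1.10, and 30 of them lay higher without overlap. The shares over all genes were 9.53% that rose and 6.46% that lay higher without overlap. Summed over all members, the level was 1247 to 1522 CPM of library totals with the combination and 665 to 729 CPM with venetoclax, higher in 5 of 5 clones. The 3 members without a call were OAS1 (0.02), TRIM22 (-0.14) and SP110 (0.07). Without the clone term 33 members rose.

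IFIT1, which binds viral RNA that lacks a proper cap, had 15.8, 10.3, 13.1, 9.49 and 11.6 CPM with the combination, against 0.292, 0.136, 0.755, 0.646 and 0.898 CPM with venetoclax. The venetoclax libraries held only 1 to 7 reads of it each, so its change of 4.38 ± 0.28, the largest among the genes named by rule, rests on a thin baseline. IFI27, an interferon-inducible mitochondrial protein, had 37.8, 30.5, 41.7, 19.4 and 45.4 CPM with the combination, against 2.05, 2.04, 2.14, 1.81 and 2.05 CPM with venetoclax (4.09 ± 0.21). The venetoclax libraries sat in a narrow band, and clone 4 was the lowest of the 5 with the combination. MX1, a dynamin-like GTPase that blocks virus replication, had 85.8, 61.7, 71.6, 54.0 and 64.7 CPM with the combination and 13.0, 12.9, 11.3, 14.2 and 13.7 CPM with venetoclax (2.37 ± 0.15). OAS3, an enzyme that activates RNase L, averaged 16.9 CPM with the combination and 1.69 CPM with venetoclax (3.29 ± 0.23). XAF1, a pro-apoptotic antagonist of XIAP, averaged 22.8 CPM with the combination and 2.17 CPM with venetoclax (3.38 ± 0.18).

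The regulators of the pathway rose too. IRF7, the transcription factor that amplifies type I interferon production, had 28.0, 26.9, 26.8, 22.2 and 24.4 CPM with the combination and 10.7, 10.1, 8.81, 7.88 and 7.83 CPM with venetoclax (1.51 ± 0.12), without overlap. STAT2 and IRF9, which act downstream of interferon receptors and are named for their role after their values were seen, rose by 0.85 and 0.50. PARP14, an ADP-ribosyltransferase induced by interferon, rose by 1.43 ± 0.09. IFITM1 and IFITM3, membrane proteins that restrict virus entry, rose by 2.27 ± 0.14 and 4.07 ± 0.26, although reads may be shared within this family of near-identical copies.

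**Figure D2:**
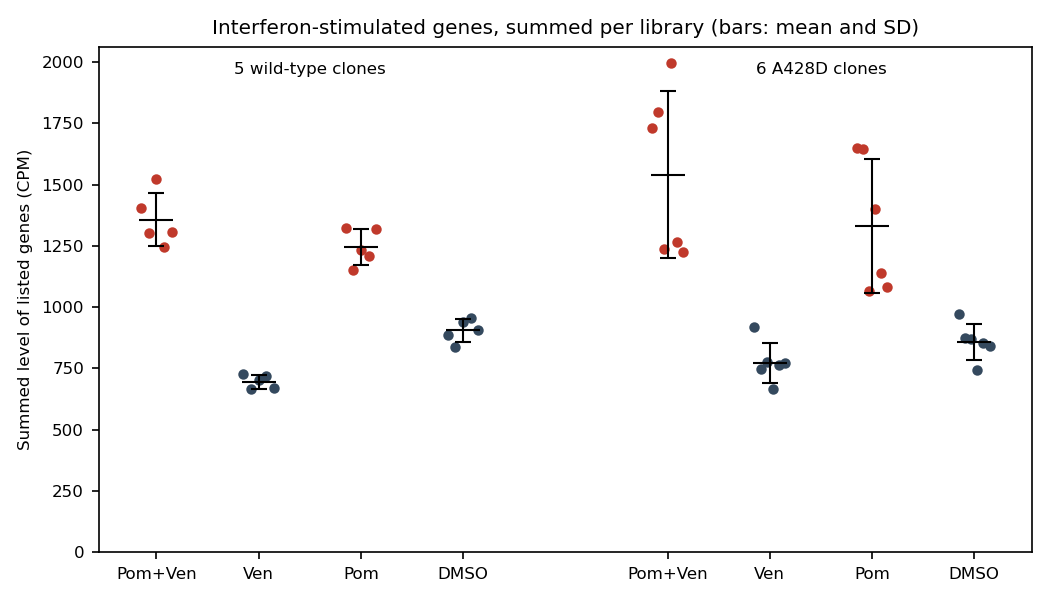
Summed CPM of the interferon-stimulated genes in each library, for wild-type and A428D clones with the combination, venetoclax, pomalidomide and DMSO; points are libraries, with group mean and SD. In wild-type clones the mean is 1357 CPM with the combination, 697 CPM with venetoclax, 1246 CPM with pomalidomide and 905 CPM with DMSO.

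The promoters of risen genes were searched for the interferon-stimulated response element, here spelled GAAA, any 2 bases, GAAA on either strand, in the 300 bases from 250 before to 50 after the start of each gene (RefSeq, GRCh38.p14). Of the 14894 tested symbols 9993 matched an entry. The element stood in 70 of 948 promoters of risen genes (7.38%), in 23 of 860 of fallen genes (2.67%), in 220 of 8185 of genes without a call (2.69%) and in 996 of all 27305 promoters (3.65%). Among genes at least 2-fold higher it stood in 31 of 240 (12.9%), and among those at least 2-fold lower in 1 of 83 (1.21%). The interferon list held it in 20 of 30 matched promoters (66.7%). All 20 of those genes rose, with a median of 2.15, and of the 10 without it 8 rose, with a median of 0.75. A match is a description of the letters and does not show binding. A composite ETS and IRF element, spelled GGAA, any 2 bases, GAAA, which overlaps in its second part with the first motif, stood in 4.96% of promoters of risen genes, 1.74% of fallen genes, 2.53% of genes without a call and 2.84% of all promoters, and in 18 of the 240 at least 2-fold higher (7.5%). The Ikaros core TGGGAA stood in 22.3% of promoters of risen genes, 21.3% of fallen genes and 24.3% of all promoters.

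The following promoters show where the element lies in 3 strongly risen members of the interferon list and in LGALS3BP, a similarly strong riser outside it, and RASSF4 is set beside them as a strong riser without the element. Of the 15 largest rises, 7 of 12 matched promoters held it (58.3%). XAF1 of the interferon list also lacked it, as did LDB3, BAIAP2 and VSIR outside that list. Capitals mark the element on either strand. The elements begin 116 and 103 bases before the start in IFIT1 (chr10:89392373-89392672, plus strand), 108 and 95 before in IFI27 (chr14:94110486-94110785, plus strand), 143 and 12 before in OAS3 (chr12:112938224-112938523, plus strand), and 58 before in LGALS3BP (chr17:78979874-78980173, minus strand). The RASSF4 window is chr10:44959552-44959851, plus strand.
IFIT1: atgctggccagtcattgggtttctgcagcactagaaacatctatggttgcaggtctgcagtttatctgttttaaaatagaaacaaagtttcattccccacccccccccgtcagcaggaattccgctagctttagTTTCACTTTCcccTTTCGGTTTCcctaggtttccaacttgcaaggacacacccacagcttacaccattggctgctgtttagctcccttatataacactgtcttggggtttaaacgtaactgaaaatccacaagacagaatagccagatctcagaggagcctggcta
IFI27: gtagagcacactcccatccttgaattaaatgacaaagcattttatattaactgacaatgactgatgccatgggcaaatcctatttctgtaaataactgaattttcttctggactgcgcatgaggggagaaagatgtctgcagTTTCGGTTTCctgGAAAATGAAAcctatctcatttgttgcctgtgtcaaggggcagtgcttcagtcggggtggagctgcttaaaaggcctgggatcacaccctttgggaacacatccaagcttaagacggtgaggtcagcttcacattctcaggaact
OAS3: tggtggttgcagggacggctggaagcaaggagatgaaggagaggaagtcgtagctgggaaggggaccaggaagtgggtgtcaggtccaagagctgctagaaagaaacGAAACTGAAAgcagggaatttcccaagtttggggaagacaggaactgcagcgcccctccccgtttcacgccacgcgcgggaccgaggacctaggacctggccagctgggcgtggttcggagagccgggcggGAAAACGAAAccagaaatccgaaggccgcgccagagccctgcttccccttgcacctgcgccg
LGALS3BP: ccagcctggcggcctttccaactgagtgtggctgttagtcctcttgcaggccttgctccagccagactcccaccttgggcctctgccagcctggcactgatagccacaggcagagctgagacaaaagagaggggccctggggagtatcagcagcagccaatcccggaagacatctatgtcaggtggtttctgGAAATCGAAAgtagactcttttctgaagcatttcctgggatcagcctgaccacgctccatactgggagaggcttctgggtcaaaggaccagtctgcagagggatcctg
RASSF4: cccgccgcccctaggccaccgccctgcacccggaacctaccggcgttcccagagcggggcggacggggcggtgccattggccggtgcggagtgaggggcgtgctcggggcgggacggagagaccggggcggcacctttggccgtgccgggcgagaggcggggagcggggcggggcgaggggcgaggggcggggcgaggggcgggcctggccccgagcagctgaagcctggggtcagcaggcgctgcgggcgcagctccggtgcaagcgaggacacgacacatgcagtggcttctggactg

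Outside the interferon list the largest rises included signalling adaptors and surface receptors. RASSF4, a Ras association domain protein (chromosome 10, 44959407 to 44995891), had 184, 144, 141, 150 and 127 CPM with the combination and 15.1, 20.4, 20.3, 18.2 and 15.8 CPM with venetoclax (3.05 ± 0.11, adjusted p = 5.8e-39). The lowest library of the combination lay far above the highest venetoclax library. LGALS3BP, a secreted galectin-binding glycoprotein, averaged 15.3 CPM with the combination and 1.09 CPM with venetoclax (3.78 ± 0.23). LDB3, a PDZ and LIM domain protein best known from the muscle Z-disc, averaged 14.4 CPM with the combination and 1.07 CPM with venetoclax (3.73 ± 0.21). BAIAP2, an adaptor of the actin cytoskeleton, averaged 16.9 CPM with the combination and 1.28 CPM with venetoclax (3.70 ± 0.21), and P2RY6, a receptor for uridine nucleotides, 19.7 CPM with the combination and 2.04 CPM with venetoclax (3.26 ± 0.16). BAIAP2 was low with the combination in clone 1 (7.12 CPM) and had 16.3 to 20.7 CPM in clones 2 to 5. Immunoglobulin lambda constant segments IGLC7 (3.17 ± 0.15) and IGLC6 (2.62 ± 0.16) rose as well, but their near-identical sequences make the split of reads between copies uncertain. DEPP1, a FOXO-induced autophagy regulator, averaged 61.2 CPM with the combination and 18.5 CPM with venetoclax (1.73 ± 0.12). DEPP1 lies at chromosome 10, 44970981 to 44978810, within the annotated span of RASSF4, and whether the counting used strand is not given in the sources used here, so reads of the pair may be mixed.

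**Figure D3:**
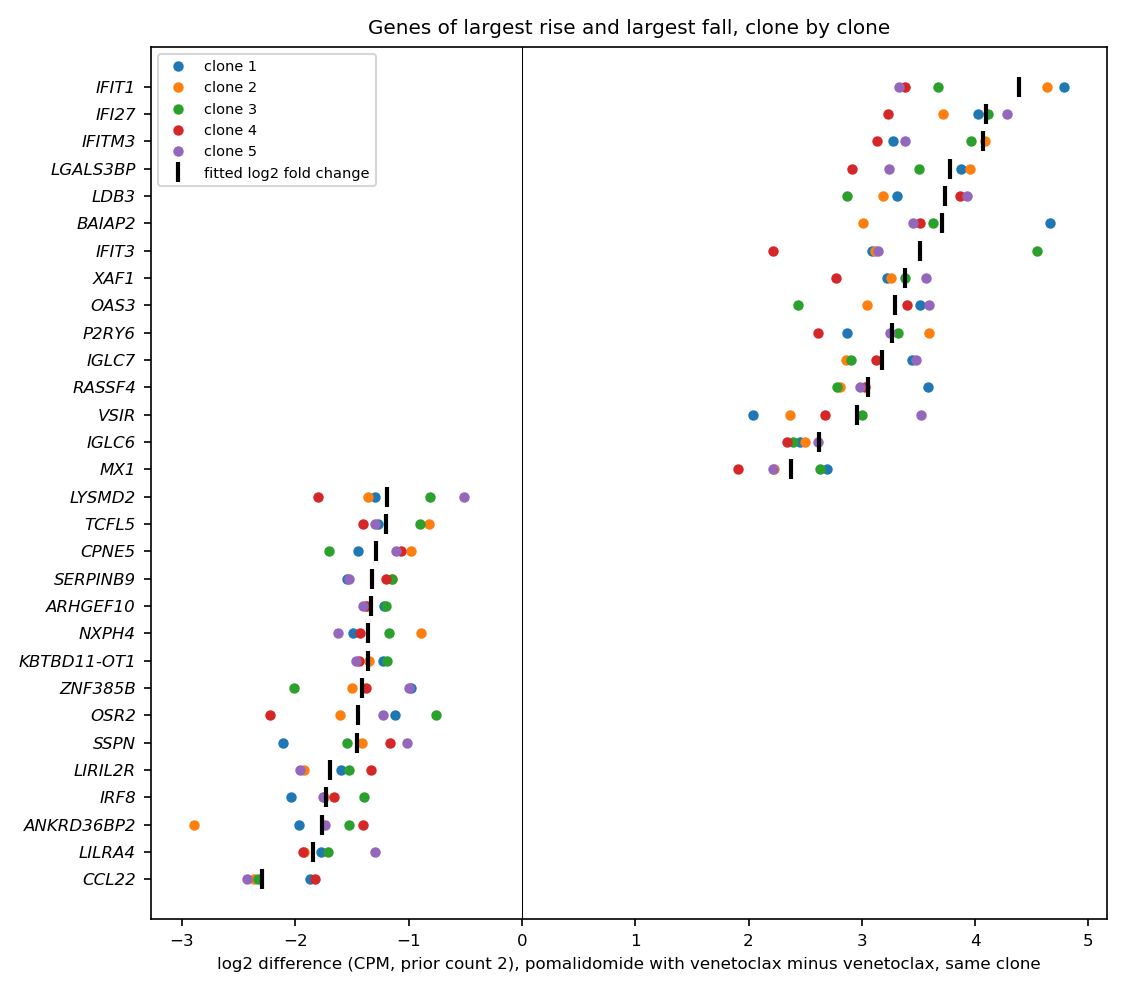
Log2 difference of CPM (prior count 2), pomalidomide with venetoclax minus venetoclax, in each of the 5 clones for the 15 largest rises and the 15 largest falls named by rule. The naming rule required the same sign in 5 of 5 clones, so the points show only the spread, with a highest value of 4.78 in clone 1 for IFIT1.

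The largest falls were smaller than the largest rises. CCL22, a chemokine that attracts regulatory T cells, had 1.39, 1.24, 1.35, 3.40 and 1.43 CPM with the combination and 5.85, 7.62, 7.93, 12.8 and 8.98 CPM with venetoclax (-2.30 ± 0.23). Clone 4 was the highest in both groups, and the groups did not overlap. IRF8, an interferon regulatory factor that governs germinal centre and myeloid programmes (chromosome 16, 85898803 to 85922609), had 10.8, 9.52, 13.9, 12.2 and 12.1 CPM with the combination and 45.2, 32.7, 37.0, 39.0 and 41.6 CPM with venetoclax (-1.73 ± 0.12, adjusted p = 1.1e-21). LILRA4, a leukocyte immunoglobulin-like receptor known from plasmacytoid dendritic cells, averaged 2.32 CPM with the combination and 8.35 CPM with venetoclax (-1.85 ± 0.19). SERPINB9, the inhibitor of granzyme B, averaged 21.2 CPM with the combination and 52.7 CPM with venetoclax (-1.32 ± 0.10). ARHGEF10 (-1.33 ± 0.10) and KBTBD11-OT1 (-1.36 ± 0.10) had near-identical levels and are neighbouring or overlapping genes whose reads may be shared. ANKRD36BP2, a pseudogene, averaged 3.14 CPM with the combination and 10.6 CPM with venetoclax (-1.77 ± 0.19), but its groups overlapped and its adjusted p was 0.085 without the clone term. The remaining large falls, among them SSPN of the dystrophin complex and the transcription factors TCFL5 and OSR2, lay between -1.69 and -1.19.

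IRF4, the factor that activated B cell lymphomas and plasma cells depend on, fell. It had 357, 338, 403, 369 and 333 CPM with the combination and 589, 570, 606, 640 and 597 CPM with venetoclax (-0.74 ± 0.09, adjusted p = 4.1e-10), without overlap. MYC, the growth regulator that IRF4 is known to sustain in such cells, had 158, 156, 166, 134 and 143 CPM with the combination, against 182, 195, 204, 185 and 173 CPM with venetoclax. All 5 clones were lower and the groups did not overlap, but the difference of -0.31 ± 0.12 did not pass (adjusted p = 0.072). It passed with only the 10 libraries fitted (adjusted p = 4.9e-05), without an expression filter (0.00044) and without clone 3 (0.017). Leaving out a clone drops all its libraries from the fit. For clone 3 these include one outside the comparison, bexobrutideg with venetoclax, that held only 1476519 reads, against 4475082 to 6110216 in the other clones. Its part in any result without clone 3 was not tested. Of 32 genes of MYC and ribosome biogenesis 3 fell and none rose, with a median of -0.10, beside 7.66% of all genes that fell. The count was 6 without clone 3 and 1 without clone 5. ODC1, the polyamine synthesis enzyme and classical MYC target, fell by 0.54 ± 0.07 on the log2 scale.

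Of 34 tested NF-kB and B cell receptor target genes, 12 fell and 6 rose, with a median of -0.05. Over all genes 7.66% fell and 9.53% rose. Of the NF-kB subunits, named for their role after their values were seen, NFKB1 (-0.54), NFKB2 (-0.52), RELB (-0.37) and REL (-0.32) fell, whereas RELA was at -0.04 without a call. BCL2A1, an anti-apoptotic BCL2 relative driven by NF-kB, averaged 203 CPM with the combination and 327 CPM with venetoclax (-0.70 ± 0.10). The risers went the other way in the same list: TNFAIP2 (1.06 ± 0.12), CCND2 (0.65 ± 0.09) and the chemokine CCL4 (1.27 ± 0.19), whose reads may be shared with its near-identical copy. CCND2, which encodes cyclin D2, averaged 260 CPM with the combination and 165 CPM with venetoclax, whereas TNFAIP2 lost its call without the clone term (adjusted p = 0.22). In that fit 3 members rose and 7 fell.

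Among the integrated stress response genes, which ATF4 switches on when amino acids run short or translation is impeded, calls were mostly falls. Of 30 tested members 15 fell, beside 7.66% of all genes. A further 14 had no call and 1, the amino acid transporter SLC38A2, rose, and the median was -0.35. ATF4 itself averaged 135 CPM with the combination and 208 CPM with venetoclax (-0.63 ± 0.09). ASNS, asparagine synthetase, had 6.77, 12.1, 8.48, 6.52 and 6.06 CPM with the combination and 12.1, 19.6, 17.9, 12.1 and 13.6 CPM with venetoclax (-0.91 ± 0.12). Clone 2 was the highest in both groups, and its library of the combination reached the lowest venetoclax libraries. CEBPB, a bZIP partner of ATF4, fell by 0.98 ± 0.10 on the log2 scale and PSAT1, of serine synthesis, by 0.79 ± 0.09. Without the clone term 9 members fell.

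**Figure D4:**
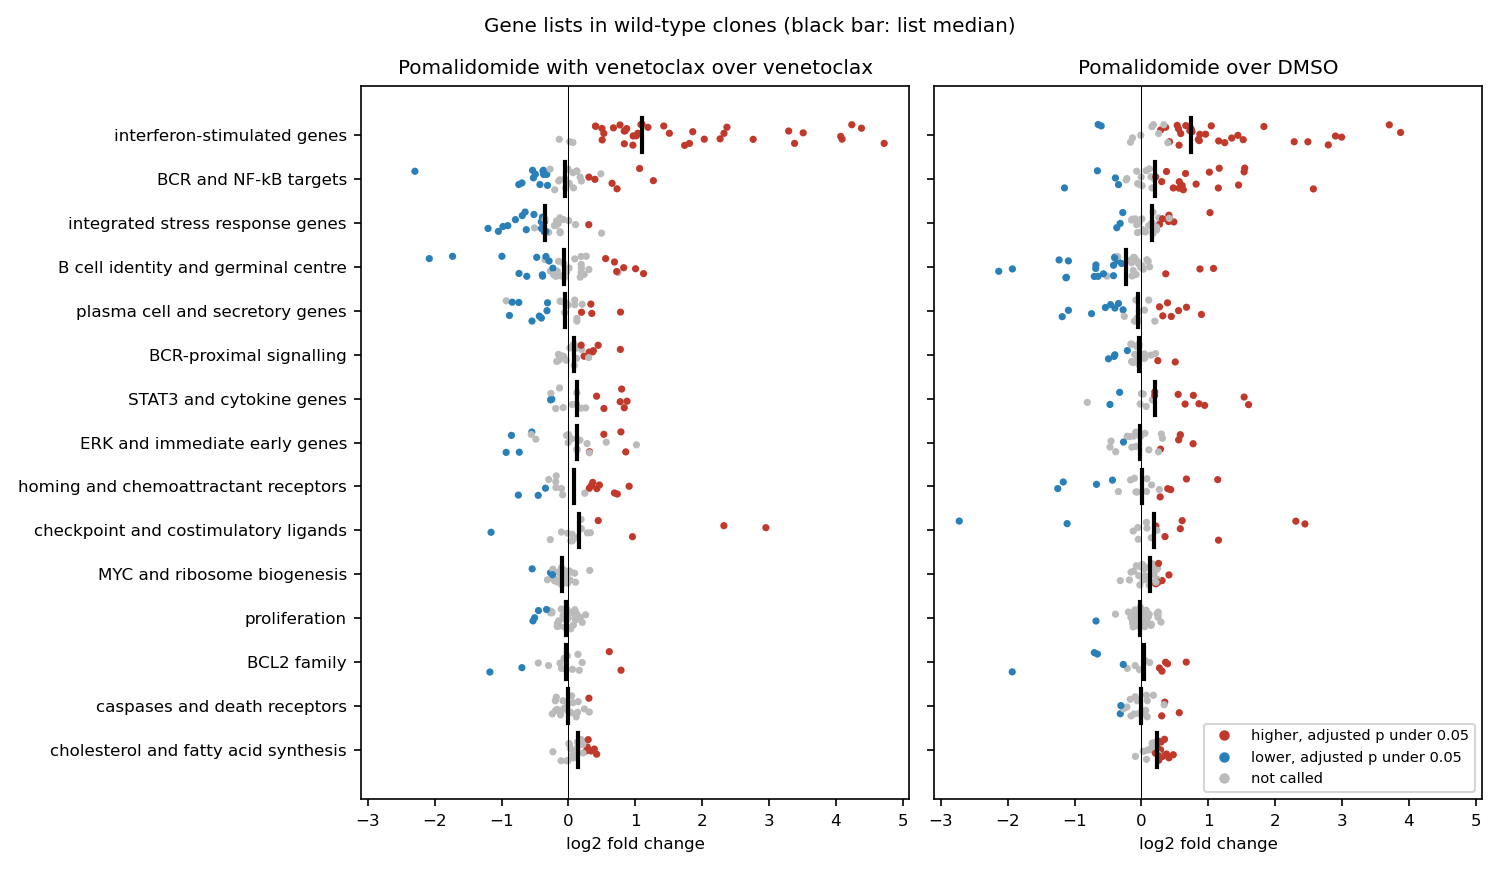
Log2 fold changes of every tested member of 15 gene lists, pomalidomide with venetoclax over venetoclax (left) and pomalidomide over DMSO (right), in wild-type clones; each point is a gene, red called higher, blue called lower, grey without a call, and the black bar is the list median. The interferon list has medians of 1.10 (left) and 0.75 (right), and the integrated stress response list -0.35 (left) and 0.16 (right).

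Of 38 B cell identity and germinal centre genes, 11 fell and 6 rose, with a median of -0.07. Over all genes 7.66% fell and 9.53% rose, also for the plasma cell list below. LMO2, a transcriptional adaptor of germinal centre cells, had 68.2, 63.1, 70.8, 46.2 and 56.6 CPM with the combination and 29.2, 36.8, 37.2, 22.5 and 27.0 CPM with venetoclax (1.00 ± 0.09), without overlap. ID3, an inhibitor of E proteins, rose by 0.83 ± 0.11, while FCRL2, an Fc receptor-like surface protein (-0.74 ± 0.09), FOXP1, a repressor of plasma cell differentiation (-0.39 ± 0.05), and CD22, an inhibitory coreceptor (-0.62 ± 0.13), fell. Without clone 3 the count was 9 higher and 18 lower, and without the clone term 4 higher and 6 lower. Of 24 plasma cell and secretory genes 8 fell and 4 rose, or 4 and 1 without the clone term. TNFRSF17, the receptor BCMA, averaged 14.0 CPM with the combination and 25.6 CPM with venetoclax (-0.88 ± 0.10; adjusted p = 0.14 without the clone term). SEC11C, a signal peptidase subunit, fell by 0.54 ± 0.07 on the log2 scale, and PDIA6, a disulphide isomerase, rose by 0.34 ± 0.06.

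Of 23 genes close to the B cell receptor 7 rose and none fell, with a median of 0.09. For each list of this paragraph, the shares over all genes were 9.53% higher and 7.66% lower. SYK, the kinase that relays the receptor signal, had 281, 304, 341, 335 and 331 CPM with the combination and 232, 232, 226, 238 and 242 CPM with venetoclax (0.44 ± 0.07), without overlap. FCGR2B, the inhibitory Fc receptor, rose by 0.78 ± 0.09. BTK, the target of a further degrader in the series, averaged 70.2 CPM with the combination and 66.3 CPM with venetoclax, a difference of 0.08 ± 0.07 without a call. Without the clone term 3 of the 23 rose. Among 17 STAT3 and cytokine genes 6 rose and 2 fell, or 5 and none without the clone term. SOCS3, the feedback inhibitor of JAK signalling, had 176 to 199 CPM with the combination and 104 to 111 CPM with venetoclax (0.80 ± 0.07), IL21R rose by 0.77 ± 0.07 and JAK2 by 0.84 ± 0.11. Of 21 ERK and immediate early genes 4 rose and 4 fell, led by JUN (0.86 ± 0.09) and PHLDA1 (-0.74 ± 0.09; adjusted p = 0.40 without the clone term). Of 21 genes of the toll-like receptor pathway 3 rose and 2 fell, and IRF7 was the one with the smallest p. That count of 5 was 1 without clone 1, 3 without clone 2, 8 without clone 3 and 2 without the clone term.

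Among 15 BCL2 family genes 2 rose and 2 fell, beside 9.53% of all genes that rose and 7.66% that fell. Of the BH3-only death genes, BBC3, which encodes PUMA, had 112, 106, 102, 121 and 112 CPM with the combination and 65.4, 72.2, 63.3, 79.2 and 83.5 CPM with venetoclax (0.61 ± 0.07). BMF had 36.1 to 45.3 CPM with the combination and 20.2 to 25.3 CPM with venetoclax (0.79 ± 0.10), and HRK averaged 4.59 CPM with the combination and 10.3 CPM with venetoclax (-1.18 ± 0.19). Among the guardians BCL2A1 fell, and BCL2 (-0.13 ± 0.09), MCL1 (0.14 ± 0.07) and BCL2L1 (-0.30 ± 0.12) had no call. MCL1 and BCL2L1 passed with only the 10 libraries fitted (adjusted p = 0.025 and 0.047), and MCL1 without clone 3 (0.04). BCL2L11, which encodes BIM, was at 250 CPM with the combination and 268 CPM with venetoclax, a difference of -0.10 ± 0.06 without a call. CFLAR, the caspase-8 inhibitor, was the only one of 20 caspase and death receptor genes called, at 0.31 ± 0.07. Of these 20, 1 rose and 1 fell without clone 2 or 3, without an expression filter and with the 40 wild-type libraries. The same counts came with RLE scaling and with DESeq2, and 2 rose and 1 fell with only the 10 libraries fitted. Of 23 p53 targets 2 rose and 5 fell, BBC3 and CDKN1A (0.62 ± 0.09) being the risers.

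Of 36 proliferation genes 4 fell and none rose, beside 7.66% of all genes that fell, E2F1 (-0.51 ± 0.13) being the one with the smallest p, and the count was 2 without clone 2 or 5 and 0 without the clone term. CCND2 and CDKN1A, which encode a cyclin and the inhibitor p21, both rose among 12 genes of G1, of which 2 fell. CDK6 fell by 0.35 ± 0.09 on the log2 scale but had no call without the clone term (adjusted p = 0.44). CDKN1A had 42.3 to 60.4 CPM with the combination and 30.3 to 34.9 CPM with venetoclax.

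Several surface molecules that other immune cells read rose. Of 16 checkpoint and costimulatory genes 4 rose and 1 fell, or 3 and none without the clone term. For each list of this paragraph, the shares over all genes were 9.53% higher and 7.66% lower. VSIR, which encodes the inhibitory ligand VISTA, had 6.94, 10.3, 8.08, 12.3 and 13.4 CPM with the combination and 1.46, 1.77, 0.755, 1.68 and 0.898 CPM with venetoclax (2.95 ± 0.21). LAG3, an inhibitory receptor, averaged 3.92 CPM with the combination and 0.755 CPM with venetoclax (2.33 ± 0.29), and CD274, which encodes PD-L1, 21.7 CPM with the combination and 11.2 CPM with venetoclax (0.96 ± 0.13). These 3 did not overlap between groups, beside 6.46% of all genes that lay higher without overlap. Among 18 homing genes 8 rose and 3 fell. ITGA4, the integrin alpha 4 chain, had 116 to 147 CPM with the combination and 63.3 to 75.7 CPM with venetoclax (0.91 ± 0.09), and CCR7, the lymph node homing receptor, rose by 0.73 ± 0.09. Without the clone term 3 homing genes rose and 1 fell, and CXCR4 (0.31 ± 0.07) lost its call (adjusted p = 0.34). Of 19 genes of MHC class I presentation 4 rose, led by HLA-F (1.06 ± 0.13), with 1 called without the clone term, 2 without clone 1, 2 or 5 and 7 without clone 3. Of 18 class II genes 1 rose and 1 fell, and 1 was called without clone 2.

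The metabolic and stress lists differed in how many members were called, beside 17.2% of all genes. Of 9 tested metallothionein and zinc response genes 3 rose and 1 fell, or 2 and none without the clone term. HMOX1, haem oxygenase 1, was one of the risers and averaged 81.9 CPM with the combination and 41.7 CPM with venetoclax (0.97 ± 0.10), and HSPB1, a small heat shock protein, was the only one of 21 chaperones called (1.03 ± 0.24), with a second call without clone 3. Of 25 cholesterol and fatty acid genes 6 rose and none fell, but none was called without the clone term, and 2 were called without clone 2 and 3 without clone 5. Of 31 hypoxia and glycolysis genes 1 rose and 4 fell, none of them called without the clone term, and without clone 5 the count was 3. All 13 mitochondrially encoded transcripts had positive estimates with a median of 0.15, beside the higher mitochondrial share given above, but only MT-ND6 was called (1.74 ± 0.58). MT-ND6 lost its call without clone 4 or 5, without the clone term (adjusted p = 0.054), with only the 10 libraries fitted (0.099) and with the 40 wild-type libraries (0.078), and 8 of the 13 were called without clone 3. With only the 10 libraries fitted several lists had more calls: 9 proliferation and 8 MYC genes fell, 12 cholesterol genes rose and 1 fell, 6 chaperones rose and 1 fell, 8 mitochondrial transcripts rose, 7 class I genes rose and 1 fell, and 10 B cell identity genes rose and 18 fell. The BCL2 family then had 4 higher and 3 lower, the hypoxia list 4 and 8, and the class II list 3 and 4. Without an expression filter the cereblon list had 2 higher, the cholesterol list 3, class I 2 and the receptor-proximal list 4, with none lower, and 9 proliferation and 6 MYC genes fell.

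Without venetoclax the same drug in the same clones called 2879 genes (19.2%), 1461 higher (9.76%) and 1418 lower (9.48%) against DMSO. These 10 libraries are separate from those above. Of the 1426 genes that rose with pomalidomide on venetoclax, 853 also rose with pomalidomide alone, which is 59.8% of the first set and 58.4% of the second, and 8 fell. Of the 1146 that fell, 563 also fell with pomalidomide alone (49.1% and 39.7%), and 7 rose. Across all genes the fold changes had a Pearson r of 0.70, a description over genes that are not independent of one another. IKZF1 rose by 0.92 and IRF8 fell by 2.13 on the log2 scale with pomalidomide alone, and the difference from the change on venetoclax had no call for either gene (-0.12, adjusted p = 0.58, and 0.40, adjusted p = 0.26). RASSF4 rose by 2.87 with pomalidomide alone and SOCS3 by 0.78.

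The change made by pomalidomide differed with venetoclax from that without it in 279 genes (1.86%), by a test of the difference itself. In 160 (1.07%) it was higher with venetoclax and in 119 (0.795%) lower, a split that became 130 higher and 146 lower with RLE in place of TMM scaling. The count fell to 4 without the clone term, was 91 without clone 5, 123 without clone 2 and 135 without clone 4, and was 1026 when only the 20 libraries concerned were fitted. MX1 had the smallest p among the first, with 2.37 on venetoclax and 0.75 with pomalidomide alone, a difference of 1.63 ± 0.21. Its level with pomalidomide alone was 34.8 to 50.2 CPM, against 19.7 to 31.1 CPM with DMSO. OAS2 (difference 1.15) and IRF7 (0.97) moved the same way, and 13 of the 39 interferon-stimulated genes had a higher change with venetoclax and none a lower one. That count of 13 was 2 without the clone term, 4 without clone 5, 5 without clone 4 and 7 without clone 2. With venetoclax over DMSO, which shares libraries with this difference, 19 of the 39 fell and none rose (median -0.51). Over all 14962 genes 3674 fell in that comparison. Summed levels of the list averaged 1357 CPM with the combination, 697 CPM with venetoclax, 1246 CPM with pomalidomide alone and 905 CPM with DMSO. The part of the lower starting level in these differences was not tested. IRF7 averaged 25.7 CPM with the combination, 9.05 CPM with venetoclax, 30.3 CPM with pomalidomide alone and 20.9 CPM with DMSO, so the levels with the combination and with pomalidomide alone lay closer to each other than the 2 starting levels.

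ID3 rose by 0.83 on venetoclax and was at -0.15 with pomalidomide alone (difference 0.98), and SAT1, a polyamine acetyltransferase, rose by 0.78 and was at -0.04 (difference 0.81). SAT1 averaged 94.7 CPM with the combination, 55.0 CPM with venetoclax, 126 CPM with pomalidomide alone and 130 CPM with DMSO. KLF2, a quiescence factor, fell by 1.17 on the log2 scale with pomalidomide alone and by 0.34 on venetoclax (difference 0.82). In the other direction, the integrated stress response list had 12 members and the NF-kB list 12 with a lower change on venetoclax and none with a higher one. Both counts were 0 without the clone term, and they were 21 for the stress response list and 22 for the NF-kB list when only the 20 libraries concerned were fitted. The stress response list had 5 without clone 5 and the NF-kB list 6 without clone 2 and 8 without clone 5, with medians of the difference of -0.49 and -0.40 in all clones. ASNS was at -0.91 on venetoclax and -0.09 with pomalidomide alone (difference -0.82), and ATF4 at -0.63 and 0.02 (difference -0.65). IL6 and IL10, cytokines that TMD8 secretes, rose by 1.60 and 1.54 with pomalidomide alone and were at -0.13 and 0.13 on venetoclax without a call (differences -1.74 and -1.41). ENDOG, a mitochondrial nuclease, rose in both settings, by 0.60 on venetoclax and 1.79 with pomalidomide alone (difference -1.19), and BATF, an AP-1 partner of IRF4, rose by 0.65 with pomalidomide alone and was at -0.08 on venetoclax (difference -0.73). Without the clone term the 4 genes with a called difference were MX1, OAS2, SLC39A10 and ENDOG, so IRF7, ID3, SAT1, KLF2, ASNS, ATF4, IL6, IL10 and BATF had none.

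**Figure D5:**
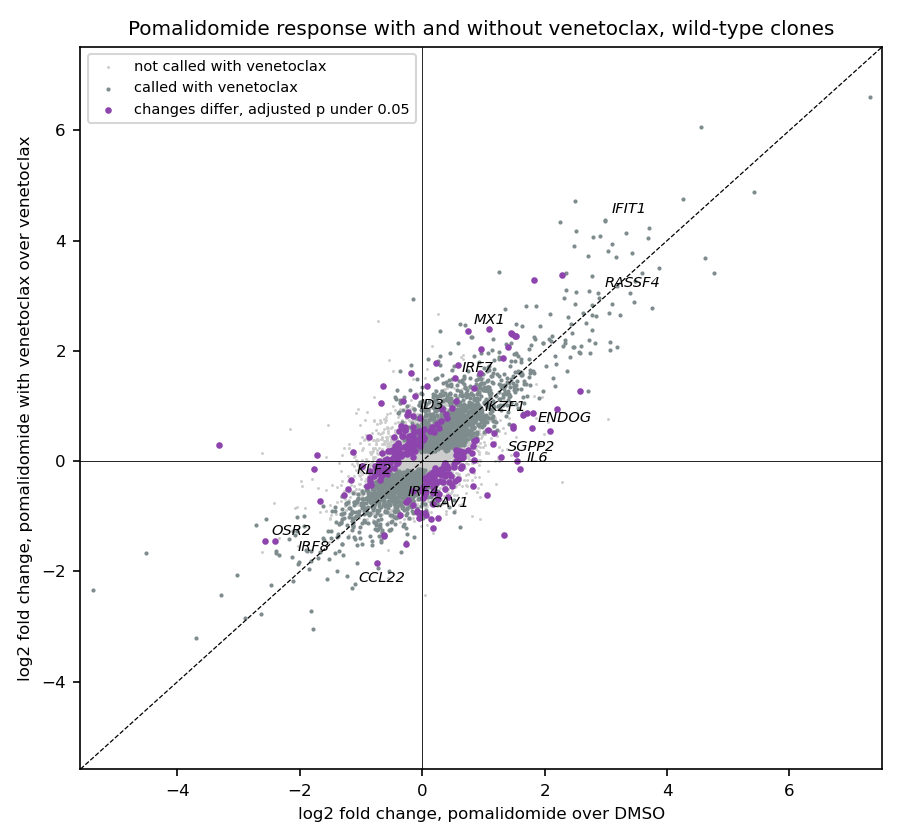
Log2 fold change of pomalidomide with venetoclax over venetoclax (vertical axis) against that of pomalidomide over DMSO (horizontal axis) in wild-type clones; each point is 1 of 14962 genes, purple points are the 279 genes whose changes differ, and the dashed line marks equal change. MX1 lies above the line (2.37 against 0.75) and IL6 below it (-0.13 against 1.60).

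Venetoclax alone called 6727 genes (45%) against DMSO, and that comparison shares the venetoclax libraries with the main one, so the values are set side by side only. IRF4 changed by -0.74 with pomalidomide on venetoclax and by 0.43 with venetoclax over DMSO. BBC3 changed by 0.61 and -1.21 in those comparisons, BMF by 0.79 and -1.18, and CCL22 by -2.30 and 1.23. MYC stood at -0.31 without a call in the first and at 0.72 in the second. These genes are examples with opposite signs, which a shared group by itself favours, and signs over all genes were not counted. Lists went both ways. Of 30 integrated stress response genes, 15 fell and 1 rose in the first comparison (median -0.35), and 17 fell and 3 rose in the second (-0.33). Of 39 interferon-stimulated genes, 36 rose in the first and 19 fell in the second. In the clones with all 4 treatments, BBC3 averaged 111 CPM with the combination, 72.7 CPM with venetoclax, 203 CPM with pomalidomide alone and 168 CPM with DMSO.

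In the 6 A428D clones pomalidomide on venetoclax called 2432 genes (16.3%), 1305 higher (8.72%) and 1127 lower (7.53%). Of the 1426 genes that rose in wild-type clones 927 also rose there, which is 65.0% of the wild-type set and 71.0% of the A428D set, and 1 fell. Of the 1146 that fell 664 also fell (57.9% and 58.9%) and none rose, and the fold changes had a Pearson r of 0.77 across genes. IFIT1 rose by 4.04 in A428D clones, RASSF4 by 2.67 and IKZF1 by 0.74, and IRF4 and IRF8 fell by 0.61 and 1.62 on the log2 scale. The change differed between the genotypes in 5 genes (0.0334%), and the p that the remaining genes missed does not show that they responded alike. CAV1, a caveola scaffold protein, had 10.9, 13.1, 11, 20.8 and 11.6 CPM in wild-type clones with the combination and 17.0, 27.4, 25.8, 31.4 and 27.0 CPM with venetoclax (-0.94 ± 0.11), and stood at -0.07 without a call in A428D clones (difference -0.87, adjusted p = 0.00286). Its groups overlapped through clone 4, but it was lower with pomalidomide in 5 of 5 wild-type clones. TNFRSF11A, the receptor RANK, rose by 1.34 in wild-type clones and was at -0.33 in A428D clones (difference 1.67, adjusted p = 0.005). PFKFB3, a glycolytic regulator, was at -0.05 in wild-type clones and fell by 1.02 in A428D clones (difference 0.97). IL4R (difference 0.75) and TESC (-0.79) completed the set. None of the 5 was called without the clone term. In that fit 285 of 14962 genes had an unadjusted p under 0.05 in edgeR, a share below 0.05. With 1 wild-type clone left out between 1 and 4 genes were called, 1 without clone 1 and 3 without clone 5. This difference was not refitted with A428D clones left out. IL4R lost its call without wild-type clone 1, 2, 3 or 5 and TNFRSF11A without clone 1, 3 or 5. TESC lost it without clone 1 or 4 and PFKFB3 without clone 1.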

How the data were processed

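RNA was measured by 3' bulk sequencing in 100 libraries, and the table deposited by the authors holds estimated counts per gene (8.76% of values not whole), which were rounded here. Per the submitters' processing notes, reads went through fastp 0.24.0, Subread 2.1.1 with featureCounts, and STAR 2.7.11, among other tools; the notes give no order. No source used here gives the strand or multi-mapping settings. Spike-in rows (92, under 0.000976% of reads) were removed.

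Counts were fitted with edgeR 4.0.16 (R 4.3.3) over 88 libraries of 16 groups with clone as a block, TMM scaling, and 14962 of 78894 identifiers kept by a minimum count of 10 and total of 15 (63 residual degrees of freedom). The quasi-likelihood test with Benjamini-Hochberg adjustment over all genes called genes at 0.05. Each pair shares a clone number and so a cell line. Same-clone deviations correlated at 0.142 to 0.420 over 500 genes, against at most 0.136 between clones. Nothing labels repeat cultures. With clone as a block, level differences between clones are taken out. The p-values therefore measure how far treatment effects vary between clones, pooled over the 16 groups. Counting error only limits single values, and no 2 clones within either of the groups compared, the combination or venetoclax, agreed within sampling noise (lowest chi-square per degree of freedom 2.00).

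Named genes are the 15 largest rises and falls called in 5 of 5 clones with a mean of at least 5 CPM, 12 fixed genes, up to 6 called members of each list by p, and up to 8 genes in each direction of each tested difference. Members and lists were chosen with earlier results of these data known. Lists are described by counts and medians without a test. Some genes are not reported here. Summed marker and interferon levels use library totals without TMM. Promoters are RefSeq windows on GRCh38.p14, and gene positions are those of GENCODE 29 on GRCh38. Alternatives were the fit without the clone block, with only the groups compared, with the 40 wild-type libraries, RLE scaling, no expression filter, DESeq2 1.42.0, and each clone left out. The fit was tested on simulated data.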

Additional observations from a re-analysis of the deposited data

Results flagged for a closer look

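In 8 of 171 groups of 5 per-clone values tested, 1 clone stood apart from the other 4 by Dixon's criterion, where chance gives about 1 in 20. The groups were changes of named genes, and read totals, mitochondrial shares and interferon sums of each treatment. All 8 were gene changes. DEPP1 rose by 2.39 on the log2 scale in clone 1 and by 1.48 to 1.62 in the others, and CCR7 by 1.16 in clone 1 against 0.55 to 0.68. PSME2 stood at 0.43 in clone 1 and at 0.19 to 0.24 in the others. SESN3, a FOXO target at the edge of detection, changed by 0.28 in clone 3 and by 1.33 to 1.74 in the others. Clone 4 had the smaller change in 3 genes: PARP14 at 1.28 against 1.43 to 1.48, OAS2 at 1.31 against 1.74 to 1.88, and PSAT1 at -0.43 against -0.94 to -0.82. BTK stood at -0.074 in clone 5 and at 0.10 to 0.16 in the others.

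The change made by pomalidomide was higher with venetoclax than without it, by a test of the difference, in MX1 (1.63), OAS2 (1.15), ID3 (0.98), KLF2 (0.82), SAT1 (0.81), SLC39A10 (0.74), CLMN (0.68) and LILRB1 (0.55). It was lower in IL6 (-1.74), IL10 (-1.41), SGPP2 (-1.21), ENDOG (-1.19), CAV1 (-0.98), MT1X (-0.85), SLC43A3 (-0.83) and BATF (-0.73). SGPP2, a sphingosine-1-phosphate phosphatase, rose by 1.29 with pomalidomide alone and was at 0.08 on venetoclax, and SLC43A3, a purine transporter, rose by 0.85 and was at 0.01. Between wild-type and A428D clones, the tested difference was higher in wild-type for TNFRSF11A (1.67), PFKFB3 (0.97) and IL4R (0.75) and lower for CAV1 (-0.87) and TESC (-0.79).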

How the results depend on the processing

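Without the replicate block (clone) the calls numbered 1259 for the combination over venetoclax, 1495 for pomalidomide over DMSO and 4 for the difference between those changes. They numbered 1183 in A428D clones and 0 for the difference between genotypes. For the latter, 285 of 14962 genes had an unadjusted p under 0.05 in edgeR, a share below 0.05, and DESeq2 with the block called 5. With only the groups compared and the replicate block, the difference with and without venetoclax was called in 1026 genes and that between genotypes in 12, and without an expression filter the count between genotypes was 40. With 1 wild-type clone left out in turn, calls ranged from 2000 to 2827 for the combination over venetoclax and 2283 to 2837 for pomalidomide over DMSO. They ranged from 91 to 322 for the difference with and without venetoclax, 1 to 4 between genotypes and 5719 to 6612 for venetoclax over DMSO. With 1 A428D clone left out, calls ranged from 1933 to 2194 in A428D clones, and the difference between genotypes was not refitted. The highest count for the combination, 2827, came without clone 3, a fit that also dropped its shallow library of 1476519 reads. The count for the combination stayed within 1.5 times under RLE scaling (2604), DESeq2 (2594), no filter (2369), 40 wild-type libraries (2285) and only its 10 libraries (3076). Of the named genes, none reversed direction under these alternatives, 53 lost their call without the block, and 17 of the 21 tested differences did. The cause was not tested. A depth of 5807113 to 7393694 reads limits genes of a few reads, such as IFIT1 with venetoclax.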
